A study of Mus musculus with 63 samples.

Results

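The genes described here encode the machinery that imports proteins into mitochondria. They are the rows of the deposited count table whose symbol starts with Timm or Tomm and a digit, together with Samm50, Mtx1, Mtx2, Pmpca, Pmpcb, Grpel1, Dnajc19, Chchd4 and Gfer. There are 33 of them among the 23429 genes of the table, and they were chosen by name, with earlier results of these data known.

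Most mitochondrial proteins are made in the cytosol and threaded in as unfolded chains. The outer membrane complex TOM receives them through receptors (Tomm20, Tomm22, Tomm70a) and passes them through the Tomm40 channel, after which barrel proteins go to the SAM complex, carrier proteins are escorted by the small Tim chaperones to the TIM22 complex, and proteins with a presequence enter the matrix through the TIM23 complex, pulled by a motor and trimmed by a peptidase. The heart depends on this route because its muscle cells are packed with mitochondria that mature after birth, and a block in import holds the kinase PINK1 at TOM, the first step of Parkin-mediated mitophagy.

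RNA sequencing was done on 63 libraries from hearts of FVB/N mice, in a study of how Parkin-mediated mitophagy bears on the maturation of heart mitochondria around birth. Mfn2AA mice overexpressed human mitofusin 2, an outer membrane fusion protein that PINK1 phosphorylates and Parkin binds, carrying the substitutions T111A and S442A. Mfn2wt mice overexpressed unsubstituted human Mfn2, tet-off mice served as the tet-off control, and nontransgenic mice (ntg) are labelled as carrying no transgene. At postnatal day 1 (P1) there were 3 libraries of Mfn2AA hearts, 4 of Mfn2wt, 5 of tet-off and 6 of nontransgenic hearts. At P21 (3 weeks) these numbers were 6, 6, 5 and 6, and at 5 weeks 4, 4, 3 and 4. A further 3 nontransgenic libraries of P21 and 4 of 5 weeks were made in the library batch of P1, all but 1 of them repeats from the total RNA of hearts also sequenced in their own batch. No group is labelled as having received an agent. The labels name neither the promoter of the tet-off driver nor the sex of the mice, and the transgenes were not equally expressed. In FPKM (fragments scaled to transcript length and library depth), human Mfn2 had 1878 to 2438 in Mfn2AA and 264 to 494 in Mfn2wt at P1, 1834 to 8051 and 1405 to 1796 at P21, and 336 to 851 and 1232 to 1745 at 5 weeks. It was also read in libraries labelled as controls, with medians of 3.68 to 39.4 FPKM by group but up to 362 in 1 library labelled tet-off at P21, 190 in 1 labelled tet-off at 5 weeks and 177 in 1 labelled nontransgenic at 5 weeks in the P1 batch. The source of these reads was not tested, and the groups are named here by their labels. A difference between Mfn2AA and Mfn2wt can therefore not be told apart from the level of the transgene.

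Total counts ran from 4557894 to 24339146 per library, and the import genes took 0.0899% to 0.272% of them. The ribosomal repeat Rn45s took 1.98% to 34.4%, with the highest shares in 5wk_Mfn2wt_15926-4 and 5wk_Mfn2wt_15931-9. The libraries 5wk_tetoff_10289-3 and 5wk_ntg_15935-10 stood apart from their groups in several import genes, such as Tomm40 (168 and 180 CPM, counts scaled to the size of the library) and Timm21 (6.88 and 6.99 CPM). None of the 9 cardiomyocyte markers was at 0 in any group. The P1 libraries are labelled as whole heart and the older ones as left ventricle, while the protocol speaks of ventricular apexes, so that age and the part sampled cannot be told apart.

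Promoter sequences are shown for 5 members that fell in Mfn2AA hearts at P21 or 5 weeks and whose window lay outside the exons of the deposited annotation. They are examples that all carry a motif match, and not all members that fell. Each line gives the 150 bases before the start in RefSeq (GRCm38.p6), 5′ to 3′ on the strand of the gene, with capitals for letters of the motifs searched on both strands. These were CCGGAAG (GABP-type), CCAAT (NFY-type), GCGCANGCG (NRF1-type) and TCAAGGTCA (ERR-type), named for factors that act at many nuclear genes of mitochondria or, for NFY, at many promoters.
Timm10 (small Tim chaperone), chr2:84826871-84827020, plus strand: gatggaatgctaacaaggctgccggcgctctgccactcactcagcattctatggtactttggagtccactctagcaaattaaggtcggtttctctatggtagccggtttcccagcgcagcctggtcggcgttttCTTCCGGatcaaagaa
Tomm22 (receptor of TOM), chr15:79670718-79670867, plus strand: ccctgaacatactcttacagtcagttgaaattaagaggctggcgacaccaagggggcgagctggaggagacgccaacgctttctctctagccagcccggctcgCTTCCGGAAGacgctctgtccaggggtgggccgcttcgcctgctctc
Tomm70a (receptor of TOM), chr16:57121564-57121713, plus strand: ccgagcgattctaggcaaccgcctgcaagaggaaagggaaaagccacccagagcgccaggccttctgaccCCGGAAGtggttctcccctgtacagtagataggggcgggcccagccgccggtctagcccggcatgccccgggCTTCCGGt
Timm44 (anchor of the import motor), chr8:4275906-4276055, minus strand: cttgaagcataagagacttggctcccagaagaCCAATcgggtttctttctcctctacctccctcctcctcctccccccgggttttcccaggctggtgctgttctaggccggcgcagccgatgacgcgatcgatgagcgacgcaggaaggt
Timm17a (TIM23 channel), chr1:135313738-135313887, minus strand: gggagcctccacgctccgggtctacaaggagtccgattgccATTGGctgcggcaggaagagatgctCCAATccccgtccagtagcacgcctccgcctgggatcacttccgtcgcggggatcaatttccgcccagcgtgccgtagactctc
In Tomm22 the capitals hold overlapping CCGGAAG matches on opposite strands. Promoters of 300 bases (250 before to 50 after the start) were matched for 30 of the 33 members. The GABP-type letters occurred in 13 of the 30 (43.3%), against 9.93% of 27025 genes and 16.6% of promoters with at least 60% GC. The NFY-type letters occurred in 10 members (33.3%), against 41.1% of genes and 31.6% of those GC-rich promoters. The NRF1-type letters occurred in 4 members (13.3%), against 7.03% and 14.5%, and are as frequent in GC-rich promoters at large. The ERR-type letters occurred in 1 member, Timm8b (3.33%), against 0.466% and 0.144%. Timm44 and Timm17a carry no CCGGAAG in the window shown. Tomm5, Timm9 and Timm8a1, which also fell in Mfn2AA hearts, are not shown, and their promoters held no match of any of these motifs. These are matches of letters, and binding was not measured.

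Per length, the most abundant import mRNAs in nontransgenic P1 hearts were Timm8b at 202 ± 86.5 FPKM (SD, n = 6), Tomm7, a small TOM subunit, at 177 ± 53.3, Timm17a at 171 ± 32.3 and Tomm5, another small TOM subunit, at 152 ± 49.3. These ranges overlap, so their order is not resolved. Of the outer membrane receptors, Tomm22 had 96.6 ± 13.5 FPKM, whereas Tomm20 had 15.1 ± 3.84 and Tomm70a 11.8 ± 2.31. The lowest tested member was the sulfhydryl oxidase Gfer, at 9.64 ± 1.14 FPKM. At 5 weeks, in libraries of the same batch, the leading genes were Timm8b (190 ± 7.02, n = 4), Tomm5 (181 ± 16.7), Timm17a (174 ± 13), Timm23 (157 ± 7.76) and Samm50 (156 ± 6.07). Timm8a1, a small Tim chaperone encoded on the X chromosome, had 16.5 ± 3.86 FPKM at P1 and 6.52 ± 1.14 at 5 weeks. A pair of members was hardly detected: Timm8a2, a copy of Timm8a1, had 18 counts in 14 of 63 libraries, and Tomm20l had 133 counts in 53 of 63. Both fell below the filter on low counts, which left 31 of 33 members tested in each comparison.

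The import genes of nontransgenic hearts changed in both directions between P1 and P21. Of 31 tested, 8 were higher at P21 (28.9% of all genes were called higher) and 7 were lower (28.4% of all genes), with a median log2 fold change of 0.03 against -0.02 for all genes tested. Tests were edgeR's quasi-likelihood test with Benjamini-Hochberg adjustment over all genes, calling an adjusted p under 0.05, and this share of called members is near that of all genes. The 4 largest rises were Tomm5 (log2 fold change 0.75 ± 0.22 SE), Timm23, the pore of the presequence channel (0.57 ± 0.09), its partner Timm17a (0.48 ± 0.12) and Timm21, which tethers TIM23 to TOM (0.44 ± 0.09). The 4 largest falls were Gfer (-0.43 ± 0.12), Timm13 (-0.42 ± 0.11), Tomm40 (-0.42 ± 0.09) and the small TOM subunit Tomm6 (-0.39 ± 0.11). In reference transcripts, 77.2% of the 50-base stretches of Tomm6 also occur in other genes such as Gm21981 and, on the opposite strand, Tomm6os. For Gfer 27.4% also occur in Dst on the opposite strand, so both counts are uncertain. By role, the inner membrane channels had 3 of 6 genes higher and 1 lower and the motor 2 of 3 higher and 0 lower. TOM had 3 of 9 lower and 1 higher and the small Tim group 2 of 6 lower and 0 higher. The TOM group as counted here includes the cytosolic co-chaperone Tomm34, which was 1 of its 3 lower genes. Among all genes 28.9% were higher and 28.4% lower, and the difference between roles was not tested. The split moved with the scale. In deposited FPKM, where the median gene shifted by -0.19 at P21 and -0.25 at 5 weeks against P1, 4 members rose and 12 fell by limma. The 4 include the hardly detected Tomm20l, which is not among the 31 tested by counts. It passed the FPKM filter (a group mean of at least 1) only through P21, at 1.16 against 0.53 at P1 and 0.577 at 5 weeks. With libraries centred on their median, 10 rose and 5 fell. The shares of all genes called on either FPKM scale are not given here.

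Tomm5 had 46.3 to 96.4 CPM at P1 (median 54.7, n = 6) and 117, 95.7 and 105 at P21. The highest P1 library, P1_ntg_10546-4, reached into the P21 range, and the other P1 libraries were all below it. The adjusted p was 0.0115, and without the P1-batch repeat of P21_ntg_10547-1 it was 0.0559 at a log2 fold change of 0.67. Gfer, which reoxidizes the relay enzyme Chchd4, had 12.2 to 15.8 CPM at P1 (median 13.1) and 11.4, 8.9 and 10.1 at P21. The P1 and P21 libraries of Gfer did not overlap, and the adjusted p was 0.00495. Samm50, the channel that folds barrel proteins into the outer membrane, had 149 to 197 CPM at P1 (median 163), 209, 231 and 223 at P21, and 278, 266, 256 and 247 at 5 weeks. Each age of Samm50 lay above the one before, with no overlap.

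**Figure D1:**
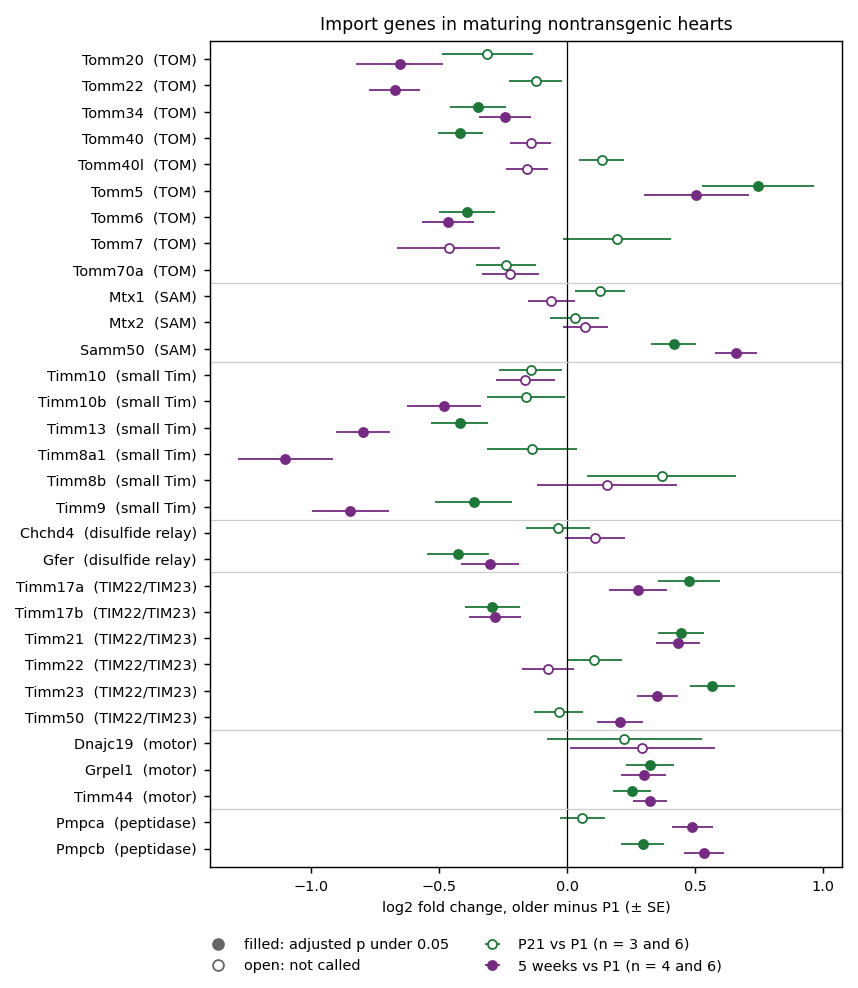
Log2 fold change (± SE) of the 31 tested import genes in nontransgenic hearts of the P1 library batch, P21 minus P1 (green) and 5 weeks minus P1 (purple), grouped by role. Filled points were called by edgeR. At 5 weeks Samm50 was 0.66 above P1 and Timm8a1 1.10 below it, and in FPKM without centring the counts at 5 weeks shift from 10 up and 10 down to 5 up and 16 down, and at P21 from 8 up and 7 down to 4 up and 12 down. The 4 up at P21 in FPKM include Tomm20l, which is not among the 31 genes shown.

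From P21 to 5 weeks only a few members were called. The alpha subunit of the presequence peptidase, Pmpca (0.43 ± 0.10), and Tomm40 (0.27 ± 0.09) rose, 2 of 31 where 11.5% of all genes rose. Timm8a1 (-0.96 ± 0.21), Tomm22 (-0.55 ± 0.11), Timm13 (-0.38 ± 0.12) and the Tomm40 paralog Tomm40l (-0.29 ± 0.10) fell, 4 of 31 where 10.3% of all genes fell. Pmpca had 60 to 78.8 CPM at P1 (median 71.5), 63.8, 79.3 and 79.3 at P21, and 102, 104, 95.9 and 97.4 at 5 weeks. The 5-week libraries were all above those of both younger ages, which overlapped. Exons of Pmpca share 27.9% of their bases with Inpp5e on the opposite strand, and the libraries carry no strand, so part of this count may be Inpp5e. Timm8a1 had 10.4 to 20.5 CPM at P1 (median 16.1), 16, 12.8 and 13.2 at P21, and 7.61, 5.37, 8.21 and 7.9 at 5 weeks. Its 5-week libraries were all lower than every younger library (adjusted p = 0.00325 against P21). Of its 50-base stretches, 41% also occur in the gene Gm9797, and reads from either copy cannot be separated. Leaving out the P1-batch repeat of 5wk_ntg_15927-6, 5wk_ntg_15928-7 or P21_ntg_10547-1 left 3 calls, with Tomm40, Tomm40l and Timm13 lost. The split of 2 up and 4 down became 1 and 4 in FPKM, 2 and 2 in centred FPKM, 3 and 4 with RLE scaling and 4 and 5 with DESeq2. Pmpca, Timm8a1 and Tomm22 each lost the call in 1 of 14 alternatives. Their smallest changes in these were 0.168, -0.287 and -0.065. In own-batch libraries of hearts sequenced in both batches, age and batch coincide. There Tomm22 had 54.9, 47 and 57.2 CPM at P21 and 54, 51.9 and 52.7 at 5 weeks. Timm8a1 had 12.7, 7.4 and 14.4, against 9.18, 8.44 and 14.6, and Pmpca 66.9, 85.5 and 73.6, against 96, 96.5 and 66.2.

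Over the whole interval from P1 to 5 weeks, 10 of 31 members rose (32.6% of all genes) and 10 fell (34.6% of all genes), shares near those of all genes. The largest rises were Samm50 (0.66 ± 0.08), both subunits of the presequence peptidase (Pmpcb 0.53 ± 0.08 and Pmpca 0.49 ± 0.08) and Tomm5 (0.51 ± 0.20). The largest falls were Timm8a1 (-1.10 ± 0.18), Timm9 (-0.85 ± 0.15), Timm13 (-0.80 ± 0.11) and Tomm22 (-0.67 ± 0.10). Among the 6 small Tim genes 4 fell and none rose (median -0.64), and among the 6 inner membrane channel genes 4 rose and 1, Timm17b, fell (median 0.24). The difference between roles was not tested. Of the 4 channel genes that rose, Timm17a (0.28) and Timm50 (0.21) each lost the call without 7 of 10 libraries (adjusted p up to 0.102 and 0.134 by edgeR). Timm17a and Timm50 both lost it without the P1-batch repeat of 5wk_ntg_15927-6 or 5wk_ntg_15928-7 or without P1_ntg_10582-1, P1_ntg_10582-2, P1_ntg_10582-3 or P1_ntg_10582-4. Timm17a also lost it without 5wk_ntg_15933-3 and Timm50 without the repeat of 5wk_ntg_15935-10. Timm17b lost its own without the repeat of 5wk_ntg_15928-7 (adjusted p = 0.0534). Timm50 was at -0.04 in FPKM, and with each age in its own batch Timm17a was at -0.058, Timm13 at 0.097 and Timm10b at 0.051. The call of Tomm5 was lost without any of 8 libraries, at adjusted p values of 0.0517 to 0.113 by edgeR. Between P1 and 5 weeks 6 of 9 cardiomyocyte markers rose and 1 fell, with summed levels of 65300 to 81960 CPM at P1, 80810 to 101400 at P21 and 102500 to 108000 at 5 weeks. The macrophage markers rose in 7 of 7, from sums of 72.5 to 88.1 CPM at P1 to 273 to 388 at P21 and 268 to 319 at 5 weeks, and the fibroblast markers in 3 of 7 with 4 lower. The 6 atrial markers summed to 629 to 2879 CPM at P1, 939 to 8076 at P21 and 185 to 845.5 at 5 weeks. None of these genes was at 0. In bulk tissue fewer cells of a type and less RNA per cell cannot be told apart, and the part of cell composition in these changes was not tested.

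Library batches were compared in 6 nontransgenic hearts sequenced in both, with the heart as a block. In P1-batch libraries 4 of 31 members were higher (Mtx2 0.44 ± 0.13, Pmpcb 0.41 ± 0.10, Tomm7 0.41 ± 0.13, Timm17a 0.36 ± 0.07), where 9.97% of all genes were higher. Another 4 were lower (Tomm40 -0.63 ± 0.13, Timm13 -0.57 ± 0.15, Timm10b -0.38 ± 0.11, Timm50 -0.31 ± 0.08), where 11% of all genes were lower. Both shares are near those of all genes, and 0 of the 8 calls held without each of the 6 hearts in turn. Tomm40 had 84.6, 97.7, 91.2, 127, 138 and 202 CPM in the hearts' own batches and 62.9, 69.3, 75.6, 92.6, 81.7 and 77.2 in the P1 batch. It was lower in the P1 batch in 6 of 6 hearts. All 8 calls were lost without the hearts 5wk_ntg_15927-6, 5wk_ntg_15928-7 or P21_ntg_10547-2, where 0 members were called and Tomm40 stood at -0.67, -0.60 and -0.65. Without P21_ntg_10547-1 there were 3 calls. The members' batch differences fell with the GC content of the transcript (r = -0.66, rho = -0.68 over 31 genes that share the same libraries). A GC correction, added after the data were seen, left 1 higher and 2 lower. The share of all genes called after this correction is not given here, and the cause of the batch differences was not tested. When each age was instead taken from its own batch, the direction turned for Tomm40 from P1 to P21 (0.026), Timm13 from P21 to 5 weeks (0.273) and, from P1 to 5 weeks, Timm13 (0.097), Gfer (0.038), Timm10b (0.051) and Timm17a (-0.058).

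**Figure D2:**
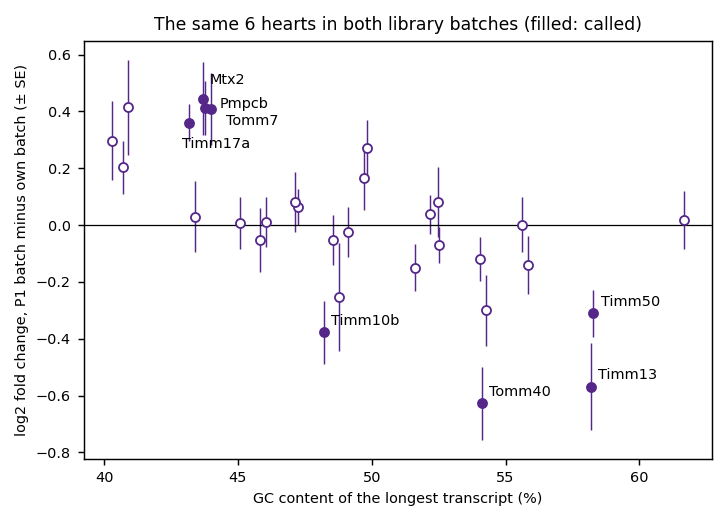
Log2 fold change (± SE) between P1-batch and own-batch libraries of the same 6 hearts (y axis) against the GC content of each import gene's transcript in percent (x axis). The 8 named, filled points were called by edgeR, with Tomm40 lowest at -0.63 and Mtx2 highest at 0.44.

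Paralog pairs shifted against each other with age. Timm17a and Timm17b are alternative subunits of the TIM23 channel. Timm17a rose and Timm17b fell (-0.29 ± 0.11) from P1 to P21, though Timm17b lost its call without P1_ntg_10546-4, P1_ntg_10582-5 or the repeat of P21_ntg_10547-2 (adjusted p = 0.0536, 0.0528 and 0.155 by edgeR). Timm17a had 92.1 to 149 CPM at P1 (median 113), 165, 148 and 173 at P21 and 152, 139, 150 and 124 at 5 weeks. Timm17b had 25.7 to 36.7 CPM at P1 (median 31.3), 26.6, 22.7 and 27.1 at P21 and 25.7, 24.7, 26.3 and 25.9 at 5 weeks. Each gene alone overlapped between P1 and P21. The ratio of Timm17a to Timm17b counts ran from 3.22 to 4.30 at P1, from 6.18 to 6.51 at P21 and from 4.79 to 5.90 at 5 weeks. The P21 ratios were all above the others. Tomm40 had 91.3 to 116 CPM at P1 (median 103), 70.1, 77.5 and 84.6 at P21 and 104, 91.9, 92 and 86.2 at 5 weeks. Tomm40l, an alternative form of the TOM channel, had 90 to 119 CPM at P1 (median 99.4), 119, 108 and 112 at P21 and 93.6, 93.5, 95.1 and 86.9 at 5 weeks. The P21 libraries were the lowest for Tomm40. The ratio of Tomm40 to Tomm40l ran from 0.876 to 1.19 at P1 (median 1.00), from 0.589 to 0.756 at P21 and from 0.967 to 1.11 at 5 weeks. It was lower at P21 than in any other library. These pairs were chosen because their members moved apart in these libraries, so the ratios are a description, with no test. Tomm40 was lower and Timm17a higher in the P1 batch in 6 of 6 hearts, although these ratios are taken within 1 batch. With each age in its own batch the log2 fold change was 0.026 for Tomm40 from P1 to P21 and -0.058 for Timm17a from P1 to 5 weeks. Of the 50-base stretches of Tomm40l in reference transcripts, 64.1% also lie in Nr1i3 on the opposite strand, so its count is uncertain.

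**Figure D3:**
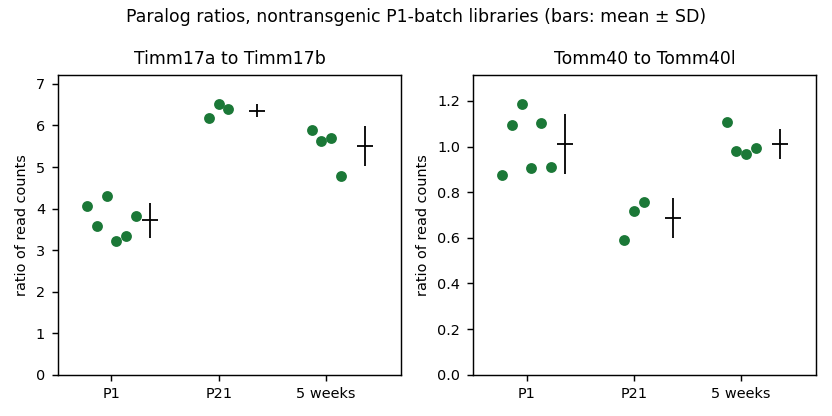
Ratio of read counts of Timm17a to Timm17b (left) and of Tomm40 to Tomm40l (right) in each nontransgenic library of the P1 batch, by age, with the mean ± SD beside the points. The 3 P21 libraries lie at 6.18 to 6.51 for Timm17 and at 0.589 to 0.756 for Tomm40.

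At P1 the import genes did not pass the test in any comparison of the transgenic lines with each other, nor of Mfn2wt with nontransgenic hearts. For Mfn2AA against Mfn2wt, edgeR called 0 of 31 (0.11% of all genes), with a median of -0.07. At an unadjusted p under 0.05 there were 3 members, and 1393 of the 13653 genes tested. For Mfn2AA against tet-off edgeR called 0 (0.00732% of all genes), with a median of -0.20 and 4 members at an unadjusted p under 0.05 (1124 of 13653 genes). For Mfn2wt against nontransgenic edgeR called 0 (0.271% of all genes), with 0 members at an unadjusted p under 0.05 (1705 of 13653 genes). DESeq2 and limma on FPKM called 0 in each of these as well. Tomm40, the outer membrane channel itself, was the 1 member called in P1 tet-off hearts against nontransgenic ones, where 0.828% of all genes were higher. In that comparison 11 of 31 members had an unadjusted p under 0.05, where 2148 of 13653 genes did. Of the members' log2 fold changes 23 of 31 were positive, and the median was 0.15. Tomm40 had 148, 137, 162, 190 and 183 CPM in tet-off and 100.3 to 128 (median 113) in nontransgenic hearts, which did not overlap. The log2 fold change was 0.54 ± 0.09 (adjusted p = 0.00557 by edgeR), and the call held in each of 18 alternatives. Without P1_ntg_10582-3 or P1_tetoff_10587-1 there were 2 calls. Mfn2AA (128, 138 and 159 CPM) and Mfn2wt hearts (144, 107, 129 and 123) lay between these groups and overlapped both.

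At P21 few members were called between Mfn2AA and Mfn2wt hearts, and the share called lower was near that of all genes. At an unadjusted p under 0.05 there were 11 of 31 members, and 3991 of the 13585 genes tested. No member of 31 rose (7.27% of all genes) and 3 fell (6.12% of all genes): the small Tim chaperones Timm10 (-0.64 ± 0.10) and Timm9 (-0.36 ± 0.11), which form 1 complex that carries membrane proteins, and the receptor Tomm70a (-0.24 ± 0.08), which takes up carrier proteins. Timm10 had 29.9 to 39.4 CPM in Mfn2AA (median 33.7, n = 6), 48.5 to 57.4 in Mfn2wt (median 54.8, n = 6), 28, 28, 39.5, 40.4 and 39.7 in tet-off, and 32.7 to 49.3 in nontransgenic hearts (median 41.6, n = 6). The Mfn2wt libraries were above every Mfn2AA and tet-off library and overlapped the highest nontransgenic one, while Mfn2AA overlapped tet-off and nontransgenic hearts. The adjusted p by edgeR was 0.000216 against Mfn2wt and 0.976 against tet-off, where the log2 fold change was -0.02 ± 0.11. Mfn2wt against nontransgenic hearts gave 0.40 ± 0.10 for Timm10 (adjusted p = 0.0883). The call of Timm10 against Mfn2wt held in 19 of 19 alternatives. Timm9 had 9.2 to 12.5 CPM in Mfn2AA (median 10.3) and 12.1 to 17.3 in Mfn2wt (median 12.7), which overlapped. Tomm70a had 21.4 to 27.7 CPM in Mfn2AA (median 26.7) and 28.8 to 33.7 in Mfn2wt (median 30), with no overlap. Timm9 lost the call without P21_Mfn2AA_10534-1, P21_Mfn2AA_10534-4, P21_Mfn2AA_10534-8, P21_Mfn2wt_10547-8 or P21_Mfn2wt_10547-9 (adjusted p = 0.0504 to 0.117 by edgeR). Tomm70a lost it without P21_Mfn2AA_10534-4, P21_Mfn2AA_10534-5, P21_Mfn2AA_10534-8, P21_Mfn2wt_10547-8, P21_Mfn2wt_10547-9 or P21_Mfn2wt_10583-2 (adjusted p = 0.0506 to 0.0952). A single call was left without P21_Mfn2AA_10534-4, P21_Mfn2AA_10534-8 or P21_Mfn2wt_10547-8, and 1 in FPKM, against 5 with DESeq2 and 5 with these groups alone. Beside this, 5 of 7 macrophage and 3 of 5 adipocyte markers rose and 2 of 9 cardiomyocyte markers fell in Mfn2AA. The macrophage markers summed to 376 to 788 CPM against 297 to 367 in Mfn2wt, and the cardiomyocyte markers to 68350 to 98040 against 80180 to 98920. Their part in the result was not tested.

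The other P21 comparisons gave no calls by edgeR. Mfn2AA against tet-off had 0 of 31 (0.574% of all genes) and 0 members at an unadjusted p under 0.05 (1622 of 13585 genes tested). Mfn2wt against nontransgenic had 0 (0.604% of all genes) and 4 at an unadjusted p under 0.05 (1020 of 13585 genes). In this comparison DESeq2 called 1 higher, as did edgeR without P21_ntg_10583-1. Tet-off against nontransgenic had 0 (1.6% of all genes) and 1 at an unadjusted p under 0.05 (1625 of 13585 genes). Limma on FPKM called 0 in these 3, and DESeq2 0 in the first and the last.

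At 5 weeks import genes fell in Mfn2AA hearts, with at least 1 called gene in each of the 7 role groups against one control or the other. Against Mfn2wt, 14 of 31 fell (18.2% of all genes were called lower) and 0 rose (20.3% of all genes), with a median of -0.47 against 0.03 for all genes. Against tet-off, 13 fell (16.1% of all genes) and 0 rose (18.9% of all genes), with a median of -0.43 against 0.01. With only the Mfn2AA and tet-off libraries in the fit, or without the filter on low counts, 8 fell against tet-off. The share of all genes called lower in either of these fits is not given here. The lists share 10 genes, 71.4% of the first and 76.9% of the second, and both comparisons use the same Mfn2AA libraries. These 10 were named after their values were seen: Tomm5, Tomm22 and Tomm70a of TOM, Samm50, Timm8b and Timm9 of the small Tim group, Timm23 and Timm50 of the inner membrane channel, and Timm44 and Grpel1 of the motor. In deposited FPKM without centring, where the median gene was 0.33 higher in Mfn2AA than in Mfn2wt and 0.20 higher than in tet-off, limma called only 2 lower and 2 higher (Timm10b and Tomm34) against Mfn2wt and 3 lower against tet-off. Relative to that shift the members' median was -0.39 and -0.44. With FPKM libraries centred, 18 and 14 members fell and 0 rose. The shares of all genes called on FPKM are not given here, so these counts are not set against a background.

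The 4 largest falls against Mfn2wt were Tomm5 (-1.11 ± 0.17), Timm10 (-0.86 ± 0.18), Timm44 (-0.78 ± 0.10) and Samm50 (-0.75 ± 0.09). The 4 largest against tet-off were Tomm5 (-0.82 ± 0.18), Samm50 (-0.75 ± 0.10), Timm8b (-0.72 ± 0.19) and Timm44 (-0.71 ± 0.11). Samm50, at chr15:84192233-84214303 (mm10), had 123, 137, 136 and 120 CPM in Mfn2AA. The same gene had 211, 222, 217 and 215 in Mfn2wt, 224, 224 and 203 in tet-off and 201, 232, 228 and 225 in nontransgenic hearts. Every Mfn2AA library of Samm50 was far below every control library (adjusted p = 1.88e-05 against Mfn2wt and 4.07e-05 against tet-off by edgeR). Timm44, at chr8:4259731-4275905, holds the motor to the exit of the channel. It had 79, 74.2, 82.4 and 67 CPM in Mfn2AA, 125, 119, 144 and 132 in Mfn2wt, 118, 124 and 128 in tet-off and 121, 145, 128 and 145 in nontransgenic hearts. Again no Mfn2AA library reached a control library (adjusted p = 4.42e-05 and 0.000202). Tomm5, at chr4:45105210-45108113, had 39.4, 48.1, 55.9 and 31.8 CPM in Mfn2AA. It had 102, 76.8, 98.7 and 101 in Mfn2wt, 74.3, 67.3 and 91.2 in tet-off and 67, 80.8, 70.5 and 82.9 in nontransgenic hearts. The Mfn2AA libraries of Tomm5 were the lowest 4, and the adjusted p was 0.000105 and 0.00201. Timm44 and Tomm5 kept their calls in every alternative run against both controls (16 and 17), and Samm50 did so against tet-off.

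**Figure D4:**
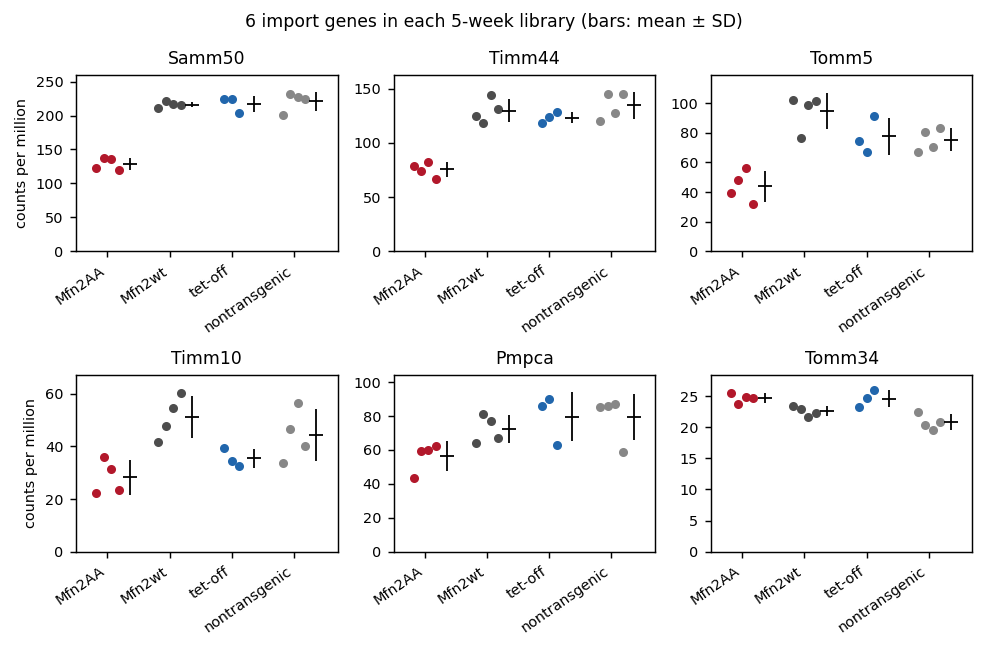
CPM of 6 import genes in each 5-week library, by genotype, with the mean ± SD beside the points and each axis from 0. Samm50, Timm44 and Tomm5 lie below all controls in the 4 Mfn2AA libraries. Timm10 and Pmpca overlap some controls, and Tomm34 was at 23.7 to 25.6 in Mfn2AA and higher than nontransgenic hearts (19.6 to 22.5).

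Timm10 had 22.1, 36, 31.4 and 23.3 CPM in Mfn2AA hearts at 5 weeks. It had 41.7, 47.9, 54.8 and 60.3 in Mfn2wt, 39.6, 34.5 and 32.5 in tet-off and 33.8, 46.8, 56.7 and 40.3 in nontransgenic hearts. The Mfn2AA libraries were below Mfn2wt without overlap but overlapped tet-off, where the test did not pass (-0.33 ± 0.20, adjusted p = 0.213). As at P21, the Mfn2wt mean of Timm10 (51.2 CPM) was above the tet-off mean (35.5 CPM). Against nontransgenic hearts, a control added after the data were seen, Timm10 was lower in Mfn2AA (-0.65, adjusted p = 0.00993 by edgeR), though these libraries overlapped. Timm8b, which escorts inner membrane proteins with Timm13, had 20.3, 18.3, 32.8 and 27.4 CPM in Mfn2AA, 34.5, 42.1, 37.1 and 36.4 in Mfn2wt and 44.5, 44.4 and 33 in tet-off. The highest Mfn2AA library of Timm8b lay just under the lowest tet-off library, 5wk_tetoff_10289-3. Without the 2 Mfn2wt libraries of high Rn45s, Timm8b lost its call against Mfn2wt (adjusted p = 0.051 by edgeR).

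By role the 5-week falls were spread over the route, where 18.2% of all genes were called lower against Mfn2wt and 16.1% against tet-off. The difference between roles was not tested. TOM had 3 of 9 genes called lower against Mfn2wt and 4 of 9 against tet-off, SAM 2 and 1 of 3, the small Tim group 3 and 3 of 6, the disulfide relay 1 and 0 of 2, the inner membrane channels 3 and 2 of 6, the motor 2 and 2 of 3, and the peptidase 0 and 1 of 2. Chchd4, the oxidoreductase of the relay, was the relay gene called (-0.37 ± 0.14, adjusted p = 0.0422 against Mfn2wt by edgeR). Its call was lost without 5wk_Mfn2AA_10287-8, 5wk_Mfn2AA_10289-8, 5wk_Mfn2AA_10289-9, 5wk_Mfn2wt_15926-4 or 5wk_Mfn2wt_15931-9 (adjusted p = 0.0886 to 0.141), and in FPKM the value was 0.02. Pmpca was the peptidase gene called against tet-off (-0.50 ± 0.17). It had 43.3, 59.7, 59.9 and 62.4 CPM in Mfn2AA and 85.9, 90 and 63.1 in tet-off, with no overlap but a lowest tet-off library close by. Without 5wk_Mfn2AA_10287-8, 5wk_tetoff_10289-1 or 5wk_tetoff_10289-2 its adjusted p was 0.0834, 0.112 and 0.142. Members not called included Tomm34, a cytosolic co-chaperone counted here in the TOM group (0.13 ± 0.09 against Mfn2wt and 0.01 ± 0.10 against tet-off). Timm22, the carrier insertase (0.05 ± 0.19 and -0.25 ± 0.20), and Timm10b (0.08 ± 0.15 and -0.14 ± 0.16) were not called either. Timm21 had the widest spread, with -0.68 ± 0.40 and -0.92 ± 0.42.

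**Figure D5:**
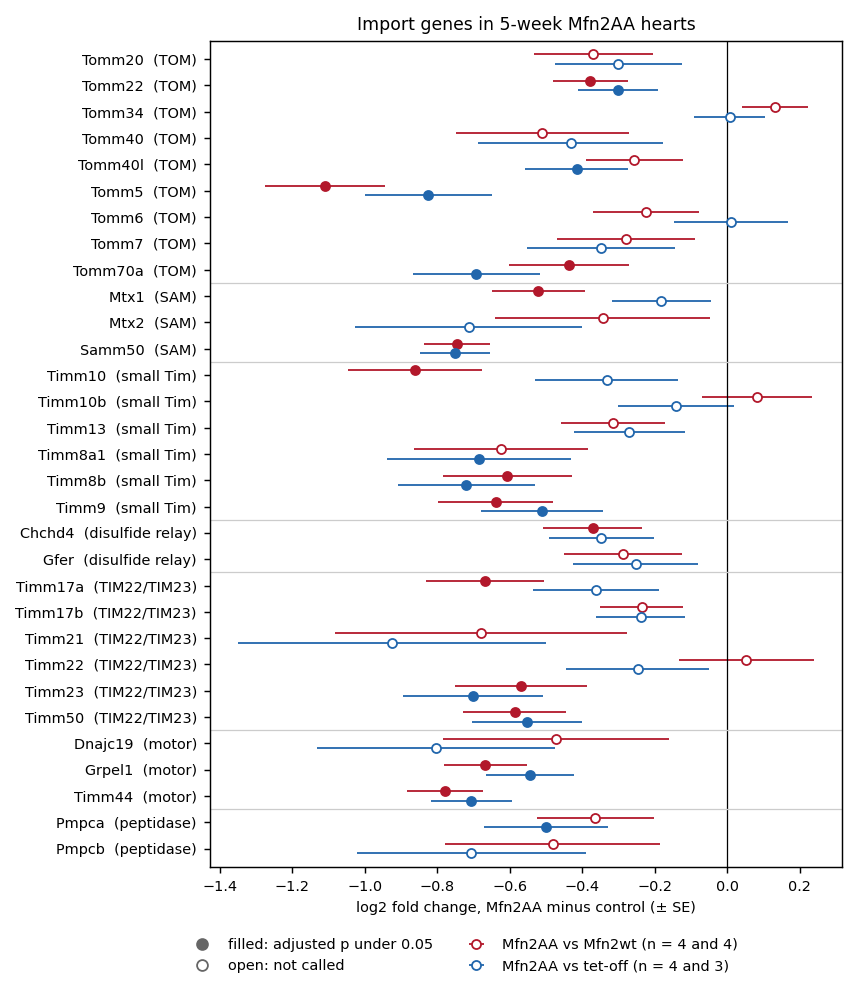
Log2 fold change (± SE) of the 31 tested import genes in 5-week Mfn2AA hearts against Mfn2wt (red) and tet-off (blue), grouped by role, filled where called by edgeR. The values run from -1.11 for Tomm5 to 0.13 for Tomm34, and on FPKM without centring Timm10b and Tomm34 were called higher against Mfn2wt.

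How many members were called against tet-off depended on single libraries. Without 5wk_tetoff_10289-2 there were 7, and without 5wk_Mfn2AA_10289-8 there were 18. Timm8a1, called against tet-off (-0.68 ± 0.25, adjusted p = 0.047 by edgeR), lost its call without any library but 5wk_Mfn2AA_10289-8 (adjusted p = 0.0526 to 0.211). Tomm22 lost it without any library but 5wk_Mfn2AA_10287-8 and 5wk_Mfn2AA_10289-8 (adjusted p = 0.0643 to 0.127). Timm23 lost it without 5wk_tetoff_10289-2 (adjusted p = 0.0687), and Timm50 without 5wk_tetoff_10289-3 (adjusted p = 0.063). Timm9 lost it without 5wk_Mfn2AA_10287-8, 5wk_Mfn2AA_10289-9, 5wk_tetoff_10289-2 or 5wk_tetoff_10289-3 (adjusted p = 0.0589 to 0.0926). Against Mfn2wt, Timm23 lost its call without 5wk_Mfn2AA_10287-8, 5wk_Mfn2AA_10289-9, 5wk_Mfn2wt_15930-8 or 5wk_Mfn2wt_15931-9 (adjusted p = 0.0587 to 0.0739). Tomm70a lost its own against Mfn2wt without any library but 5wk_Mfn2AA_10287-8 and 5wk_Mfn2wt_15934-5 (adjusted p = 0.0503 to 0.154). Nontransgenic hearts as the control, added after the data were seen, gave 18 lower (18.5% of all genes) and 1 higher, Tomm34 (0.25, 21.4% of all genes). The motor gene Dnajc19 (-1.29) and Timm23 (-1.01) were the lowest. Dnajc19 was not called against Mfn2wt or tet-off. Its mean FPKM was 19 ± 8.39 in Mfn2AA, 20.1 ± 9.99 in Mfn2wt, 27.5 ± 8.79 in tet-off and 37.1 ± 13.4 in nontransgenic hearts. The controls thus differed in their means too, with no call between them. Timm23 had 65.2, 74.4, 106 and 62.8 CPM in Mfn2AA and 153, 172, 160 and 135 in nontransgenic hearts. These did not overlap, but 90.9% of its 50-base stretches also occur in near copies such as Gm10273, so which copy was read is uncertain.

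Markers of other cells moved with these groups. At 5 weeks the summed cardiomyocyte markers were 52920 to 68260 CPM in Mfn2AA, 59810 to 97740 in Mfn2wt and 86510 to 96450 in tet-off, and 7 of 9 fell against each control (medians -0.96 and -1.01). The 7 fibroblast markers summed to 13330 to 17360 CPM in Mfn2AA, 932 to 2691 in Mfn2wt and 1505 to 2187 in tet-off, and 6 of 7 rose. The macrophage markers summed to 684 to 1696 CPM in Mfn2AA, 188 to 425 in Mfn2wt and 274 to 298 in tet-off, and 7 of 7 rose. The 6 atrial markers summed to 7390 to 15090 CPM in Mfn2AA, 1141 to 3014 in Mfn2wt and 136 to 563 in tet-off, with 1 higher and 1 lower against Mfn2wt and 2 higher against tet-off. The median log2 fold change of the atrial list was -1.34 against Mfn2wt and 2.36 against tet-off. The call against Mfn2wt in the upward direction was Nppa, a natriuretic peptide that ventricular muscle also makes, at 2.52 ± 0.41, and Bmp10 was the one that fell (-5.23 ± 1.07). No gene of these lists was at 0 in any group, and the part of cell composition in the import genes' fall was not tested.

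The difference between Mfn2AA and its controls changed with age. From P1 to P21 the change against Mfn2wt had 1 member at an unadjusted p under 0.05, where 1185 of 14610 genes tested did. The shift in the log2 difference of Mfn2AA from Mfn2wt gave 0 calls by edgeR over that interval (0.294% of all genes) and 0 by DESeq2. From P21 to 5 weeks it was called lower for 9 members (18.2% of all genes) and higher for 0 (17.7% of all genes), led by Tomm5 (-0.77 ± 0.25), Samm50 (-0.74 ± 0.14), Timm44 (-0.60 ± 0.12) and Timm50, the presequence receptor of TIM23 (-0.57 ± 0.16). Against tet-off the change was called lower for 12 (16.6% of all genes) and higher for 0 (17.6% of all genes), led by Timm21 (-0.91 ± 0.33), Mtx2 (-0.87 ± 0.26), Tomm5 (-0.80 ± 0.26) and Pmpcb (-0.76 ± 0.25). The lists share Grpel1, Samm50, Timm23, Timm44, Timm50 and Tomm5, 66.7% of the first and 50% of the second, and both use the same Mfn2AA libraries. Of these, Timm23 was the least stable: against Mfn2wt its call was lost in 13 of 20 fits that each left out 1 library (adjusted p = 0.0508 to 0.139 by edgeR, the highest without 5wk_Mfn2wt_15930-8). Against tet-off the call of Timm23 was lost without 5wk_Mfn2AA_10287-8, 5wk_Mfn2AA_10289-9, 5wk_tetoff_10289-2 or P21_tetoff_10534-3 (adjusted p = 0.0578 to 0.155). Timm50 lost it against tet-off without 5wk_tetoff_10289-3 (adjusted p = 0.0756). Timm10 was not called (-0.25 ± 0.21 against Mfn2wt). Without 5wk_tetoff_10289-2 there were 7 calls against tet-off, and Tomm5 lost its call without 5wk_tetoff_10289-3 (adjusted p = 0.0624). Timm21 lost it without 5wk_Mfn2AA_10287-8, 5wk_tetoff_10289-1 or 5wk_tetoff_10289-2 (adjusted p = 0.0856, 0.0859 and 0.225), as did Pmpcb. Age and library batch coincide in these groups, so a batch effect that acts differently on the genotypes cannot be told apart from age.

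Between the control groups no import gene was called at 5 weeks. Mfn2wt against nontransgenic hearts gave 0 of 31 by edgeR (0.388% of all genes), with 3 at an unadjusted p under 0.05 (720 of 13661 genes tested). Tet-off against nontransgenic gave 0 (0.117% of all genes), with 1 at an unadjusted p under 0.05 (604 of 13661 genes). DESeq2 and limma on FPKM also called 0 in both. The members' medians were -0.04 and -0.03. Single members ran from -0.82 to 0.38 and from -0.49 to 0.24.

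The wider pathway was taken from a list of 53 partner genes for import, folding and turnover, of which 51 were tested. This list too was chosen with earlier results of these data known. At 5 weeks 28 of 51 fell (18.2% of all genes) and 1 rose (20.3%) in Mfn2AA against Mfn2wt, and 21 fell (16.1%) and 0 rose (18.9%) against tet-off, with a median of -0.58 in both. The lowest were Apoo, a cristae organizer (-1.43 ± 0.27), Pink1, the kinase that import degrades (-1.30 ± 0.21), and Hspd1, the matrix folding chamber (-1.21 ± 0.17), while the mitophagy receptor Bnip3l rose (0.45 ± 0.14). All 4 folding chaperones fell against both controls. Against tet-off the lowest were Pink1 (-1.51 ± 0.22), Hspd1 (-1.20 ± 0.18) and the protease subunit Clpx (-1.18 ± 0.16). At P21 against Mfn2wt 7 of 51 fell (6.12% of all genes), among them Apool (-0.82 ± 0.24), the motor chaperone Hspa9 (-0.60 ± 0.11) and Mtx3 (-0.41 ± 0.11), and 1 rose (7.27% of all genes), Pink1 (0.36 ± 0.12). From P1 to P21 in nontransgenic hearts 26 of 51 rose (28.9% of all genes) and 5 fell (28.4%), with Immp2l (1.78 ± 0.35), Pink1 (1.39 ± 0.09) and Oma1 (1.29 ± 0.10) highest and Chchd6 (-0.78 ± 0.13), Htra2 (-0.47 ± 0.12) and Mtx3 (-0.42 ± 0.12) lowest. From P21 to 5 weeks 14 of 51 rose (11.5% of all genes) and 5 fell (10.3%), with Hsp90ab1 (0.58 ± 0.11), Hspa9 (0.57 ± 0.11) and Bnip3 (0.56 ± 0.11) highest and Romo1 (-1.03 ± 0.20), Minos1 (-0.73 ± 0.18) and Fundc1 (-0.70 ± 0.18) lowest.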

How the data were processed

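Polyadenylated heart RNA was sequenced from single ends without strand, per the labels' protocols. Per the submitters' processing notes, Bowtie2, TopHat2 2.0.10, HTSeq and Cufflinks 2.1 were used with build mm10. The deposited table holds a raw read count per gene and library. The deposited FPKM table is scaled by length and depth by the authors. The deposited annotation (other unit) gives exon positions.

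Members and lists were chosen with earlier results of these data known. Groups came from the labels. Counts were tested with edgeR 4.0.16 in R 4.3.3 (quasi-likelihood F test, TMM factors, filterByExpr), fitting the 4 genotypes of an age together, adjusted by Benjamini-Hochberg over all genes and called under 0.05. Ages were compared over 13 nontransgenic libraries, all from the batch of P1. The 19 comparisons include 3 changes with age and 1 of batches. The standard error is the absolute log2 fold change divided by the root of F. The labels give each title a heart number, and p-values measure the spread between these samples. At no age did a Mfn2AA heart share the first part of that number, the title number, with a Mfn2wt heart. In that comparison whatever the title number stands for cannot be told apart from genotype. The fits were tested on simulated data. No pair of 1953 libraries was identical. Depth, which bounds counting error only, ran from 4557894 to 24339146 counts.

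By rule, all called members were named where 6 or fewer were called in a comparison, otherwise the 4 greatest in each direction. Library values were given for the greatest rise and fall and for paralog pairs moving apart. Up to 3 called partner genes were named per direction. Other members named were chosen after their values were seen. Promoters came from RefSeq GRCm38.p6, and the GABP-type and NFY-type motifs were added after the data were seen. Alternatives were DESeq2 1.42.0, RLE scaling, dropping the filter, limma 3.58.1 on log2(FPKM + 1) for genes with a group mean of at least 1, the compared groups alone, the title number as a block, other batches, and each library left out. Chosen after seeing the data were a GC correction (lowess, span 0.3, with 98.4% of genes matched), centred FPKM, nontransgenic controls, hearts of 1 age for the batch effect and the fit without the 2 Mfn2wt libraries of high Rn45s.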

Additional observations from a re-analysis of the deposited data

Results flagged for a closer look

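Single libraries stood far from the rest of their group in 5 of 132 groups of values examined for the members with per-library values, and chance flags about 1 in 20 groups. Timm17b had 22.3 CPM in P21_Mfn2AA_10534-6, against 26.7 to 29.3 in the other libraries of that group. Pmpca had 43.3 CPM in 5wk_Mfn2AA_10287-8, against 59.7 to 62.4. Tomm5 had 76.8 CPM in 5wk_Mfn2wt_15930-8, against 98.7 to 102. In 5wk_ntg_15935-10 Pmpca had 59 CPM, against 85.7 to 87, and Timm8a1 had 13 CPM, against 7.6 to 8.25.

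The genotype difference changed between P21 and 5 weeks for several members, by edgeR's test of the change itself. Against Mfn2wt the log2 change was -0.48 for Grpel1, -0.47 for Mtx1, -0.74 for Samm50, -0.53 for Timm17a, -0.43 for Timm17b, -0.47 for Timm23, -0.60 for Timm44, -0.57 for Timm50 and -0.77 for Tomm5. Against tet-off it was -0.52 for Grpel1, -0.87 for Mtx2, -0.52 for Pmpca, -0.76 for Pmpcb, -0.69 for Samm50, -0.91 for Timm21, -0.56 for Timm23, -0.63 for Timm44, -0.53 for Timm50, -0.43 for Tomm40l, -0.80 for Tomm5 and -0.69 for Tomm70a.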

How the results depend on the processing

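Over the called members and their alternatives, 1465 values kept direction and call, 294 kept only the direction and 9 turned. Apart from nontransgenic hearts as the control, counts of calls under other settings, here and above, stand without the share of all genes called there. They therefore do not show whether the members changed more than all genes did. In FPKM without centring the called members were 4 for Mfn2AA against Mfn2wt at 5 weeks (main 14), 3 against tet-off at 5 weeks (main 13) and 1 against Mfn2wt at P21 (main 3), Chchd4 and Tomm22 turned to 0.02 and 0.027 against Mfn2wt at 5 weeks, and Timm50 to -0.04 between P1 and 5 weeks. With each age in its own batch the P1 to 5 weeks values turned for Gfer (0.038), Timm10b (0.051), Timm13 (0.097) and Timm17a (-0.058), as did Timm13 from P21 to 5 weeks (0.273) and Tomm40 from P1 to P21 (0.026). The cause was not tested.

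With the compared groups alone there were 8 calls against tet-off at 5 weeks, 5 against Mfn2wt at P21 and 1 for Mfn2wt against nontransgenic at P21 (main 0). Without the filter there were 8 against tet-off at 5 weeks. DESeq2 gave 5 against Mfn2wt at P21, 1 for Mfn2wt against nontransgenic at P21 and 2 for tet-off against nontransgenic at P1 (main 1), which a GC correction also gave. The GC correction left 3 batch calls (main 8), 5-week hearts alone 4, and no replicate block 1. The labels do not say what the title number shared between groups stands for, and in the fit with it as a replicate block Mfn2AA against tet-off at 5 weeks had 5 calls.

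Leaving out 1 library gave 15 to 21 calls for P1 to 5 weeks, 3 to 5 for P21 to 5 weeks, 13 to 16 for P1 to P21, 11 to 14 for Mfn2AA against Mfn2wt at 5 weeks and 1 to 4 at P21, 7 to 18 against tet-off at 5 weeks, 8 to 12 and 7 to 15 for the changes from P21 to 5 weeks against Mfn2wt and tet-off, 0 to 1 for Mfn2wt against nontransgenic at P21, 1 to 2 for tet-off against nontransgenic at P1 and 0 to 9 between batches. At the lowest depth, members of low level such as Timm8a1 and Gfer rest on few counts.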
